A study of Mus musculus with 8 samples.

Results

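Bag3, Hspb8 and 7 chaperone genes that work with them were followed through ribosome-associated mRNA from 8 mouse spinal cords. The genes were taken by symbol from the deposited gene tables: the BAG co-chaperones Bag3 and Bag1, the small heat shock proteins Hspb8, Hspb1, Hspb6 and Cryab, the Hsp70 chaperone Hspa8 with its nucleotide exchange factor Hsph1, and the ubiquitin ligase Stub1. All 9 were among the 38924 gene identifiers in the tables, and all 9 were among the 15208 genes that passed the filter on low counts. The set was drawn up with the differences between precipitates with and without Cre already known for these libraries, so those differences, and counts of calls in them, are a description and support nothing.

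BAG3 is a scaffold that binds HSPB8 and HSP70 at the same time. In chaperone-assisted selective autophagy, the complex recognises a damaged client, the ligase encoded by Stub1 (CHIP) ubiquitinates it, and the client is passed through receptors such as p62 to autophagosomes and lysosomes. BAG1 binds HSP70 at the same domain and directs clients to the proteasome instead. Spinal motor neurons are a tissue where this route has been studied closely, because inherited mutations in HSPB8, HSPB1 and BAG3 cause motor neuropathies or myopathies.

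The series asked which mRNAs are on ribosomes in motor neurons after a nerve crush. All mice carried 1 allele of the ribosomal protein gene Rpl22 that gains an HA tag in cells with Cre recombinase, and all were described as wild type for Gars (Gars+/+), on a B6.CgxB6.129 background. Cre driven from Chat switches the tag on in cholinergic cells, and in spinal cord these are motor neurons and some interneurons. Whole spinal cords were homogenised and ribosomes precipitated with an anti-HA antibody. Precipitates without Cre hold mRNA that comes down without a tag. The 4 groups had 2 animals each: Cre with the sciatic nerve crushed on 1 side (animal 35, 18 weeks old, and animal 52, 9 weeks), no Cre with crush (51 and 58, 9 weeks), Cre with no crush (10 and 3, 8 weeks), and neither (4 and 6, 8 weeks); mice without crush are called intact. The genotype entries read Rpl22 +/-; Chat +/- for Cre and Rpl22 +/-; Chat +/+ for no Cre, but they go against the titles of animal 3 (Cre by title) and animal 4 (no Cre by title), and libraries were grouped by title. Crush was applied on 1 side while the whole cord was used, so each crushed precipitate also holds motor neurons of the uncrushed side. Crush cannot be told apart from age, nor from a number that all uncrushed titles share. The sources used here give no time after crush.

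Promoter windows of Bag3, Hspb8, Hspb1 and Hsph1 are shown because Bag3 and Hspb8 are the scaffold and its partner and the windows of Hspb1 and Hsph1 hold a match to a heat shock motif. The windows are the 250 bases before the annotated start, 5′ to 3′ on the gene's strand, from RefSeq on GRCm38.p6, and 7 of the 9 genes were in the table. Capitals mark matches to the paired heat shock units GAANNTTC or TTCNNGAA, which read the same on both strands.
Bag3, chr7:128523333-128523582, plus strand: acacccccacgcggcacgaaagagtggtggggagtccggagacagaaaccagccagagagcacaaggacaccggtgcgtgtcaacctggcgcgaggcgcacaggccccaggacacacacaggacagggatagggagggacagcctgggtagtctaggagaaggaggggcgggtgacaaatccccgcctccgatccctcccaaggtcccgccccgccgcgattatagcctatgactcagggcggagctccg
Hspb8, chr5:116422865-116423114, minus strand: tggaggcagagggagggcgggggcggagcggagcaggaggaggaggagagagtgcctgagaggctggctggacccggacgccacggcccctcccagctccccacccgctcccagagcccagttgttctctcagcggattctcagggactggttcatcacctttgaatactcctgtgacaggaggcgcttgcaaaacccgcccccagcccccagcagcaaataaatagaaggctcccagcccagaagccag
Hspb1, chr5:135887669-135887918, plus strand: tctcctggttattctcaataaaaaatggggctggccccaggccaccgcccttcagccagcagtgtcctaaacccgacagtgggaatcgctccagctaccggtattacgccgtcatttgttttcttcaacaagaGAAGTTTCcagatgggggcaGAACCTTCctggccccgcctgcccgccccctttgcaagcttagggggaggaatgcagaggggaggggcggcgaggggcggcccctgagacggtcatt
Hsph1, chr5:149636337-149636586, minus strand: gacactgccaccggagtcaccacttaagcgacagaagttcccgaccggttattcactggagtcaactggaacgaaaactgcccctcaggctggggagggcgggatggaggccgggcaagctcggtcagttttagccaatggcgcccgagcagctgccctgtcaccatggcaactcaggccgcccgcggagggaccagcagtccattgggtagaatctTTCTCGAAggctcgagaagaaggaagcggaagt
The window of Hspb1 held 2 matches to GAANNTTC, between 90 and 117 bases before the start. That of Hsph1 held 1 match to TTCNNGAA, 26 to 33 bases before it, or 47 to 54 bases before a second annotated start. Stub1 and the second of the Hspb6 windows held 1 GAANNTTC each, so that 4 of the 7 genes had a match. No match of either kind was in the windows of Bag3, Hspb8 or Bag1. For Bag3 the bases checked after this annotated start were in no GENCODE transcript of the gene. They were in one for all other windows of the 7 genes. Where the Bag3 window lies relative to its transcripts is therefore uncertain, and the absence of a match holds for these letters only. Of 32851 promoter windows of this length, 6.69% held GAANNTTC, 7.17% TTCNNGAA and 12.84% either. A 3-unit motif, GAANNTTC followed after 2 bases by GAA and searched on both strands, was in 0.47% of all windows and in 0 of the 7 genes. A match is a description of letters and not a bound site.

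Library totals ran from 4826979 to 11522721 expected counts. Levels are in CPM, counts scaled to library totals after TMM adjustment, and on that scale 3 counts were worth between 0.19 and 1.17 CPM. The motor neuron label was checked with 8 cholinergic motor neuron markers: their summed level was 1979 to 2425 CPM in the 4 Cre precipitates and 97.4 to 183 CPM in the 4 without Cre, where Mnx1 was at 0 in both uncrushed libraries. Of the 8, 7 were called higher with Cre both with and without crush. Chat itself was at 78.2 to 126 CPM with Cre and 3.83 to 5.16 CPM without, so each library followed its title, including both with a contradictory genotype entry. Summed oligodendrocyte markers went the other way, 720 to 1854 CPM with Cre and 4686 to 7913 CPM without, and astrocyte markers stood at 425 to 720 CPM with Cre and 1880 to 3392 CPM without. The part of these cell types in the results that follow was not tested, and in bulk precipitates fewer tagged cells and less mRNA per cell cannot be told apart.

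Bag3 mRNA was abundant in every precipitate with Cre and scarce without it. It stood at 282 and 281 CPM in the intact Cre mice 10 and 3, 224 and 226 CPM in the crushed Cre mice 35 and 52, 24.2 and 27.8 CPM in the intact no-Cre mice 4 and 6, and 14.7 and 21.2 CPM in the crushed no-Cre mice 51 and 58, the order kept throughout. The replicates of each Cre group were almost equal, and the lowest Cre library was far above the highest no-Cre library. Its difference between Cre and no-Cre precipitates was 3.43 ± 0.26 on the log2 scale without crush and 3.65 ± 0.26 with crush (± is the SE of a log2 fold change throughout). These differences ranked 185 and 92 from the top of the 15208 genes.

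Bag1, the BAG protein that routes HSP70 clients to the proteasome, was only slightly higher with Cre. It stood at 60.4 and 54.5 CPM in intact Cre mice, 85.1 and 57.2 CPM in crushed Cre mice, 42.5 and 37.1 CPM in intact no-Cre mice and 38.4 and 49.5 CPM in crushed no-Cre mice. The Cre and no-Cre libraries did not overlap, but animal 35 lay well above the other 3 Cre libraries. The log2 difference was 0.53 ± 0.26 without crush and 0.70 ± 0.25 with it.

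The ratio of Bag3 to Bag1 mRNA was also taken within each library, and like the Cre differences it is a description. On levels per length (CPM per kilobase of effective length), Bag3 over Bag1 was 2.18 and 2.40 in intact Cre mice, 1.22 and 1.83 in crushed Cre mice, 0.265 and 0.347 in intact no-Cre mice and 0.177 and 0.199 in crushed no-Cre mice. Bag3 exceeded Bag1 in 4 of 4 libraries with Cre and in 0 of 4 without. The ratio was lower after crush by a log2 difference of -0.61 with Cre and -0.69 without, and the groups did not overlap in either case. In CPM, 23.9% of all genes with Cre and 19% without were likewise lower after crush with no overlap. With 2 animals against 2, the two-sided exact permutation test gave 0.333 for each, which is the smallest p it can give. It also gave 0.333 for Hspa8 over Bag3 (0.20 with Cre and 0.47 without). For Stub1 over Bag3 (-0.115 and -0.41), Cryab over Hspb8 (-0.39 and -0.28) and Hspa8 over Hsph1 (0.04 and 0.05) its p was larger. Hspb1 over Hspb8 (-0.29 and -0.71) gave 0.333 with Cre and 0.667 without.

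**Figure D1:**
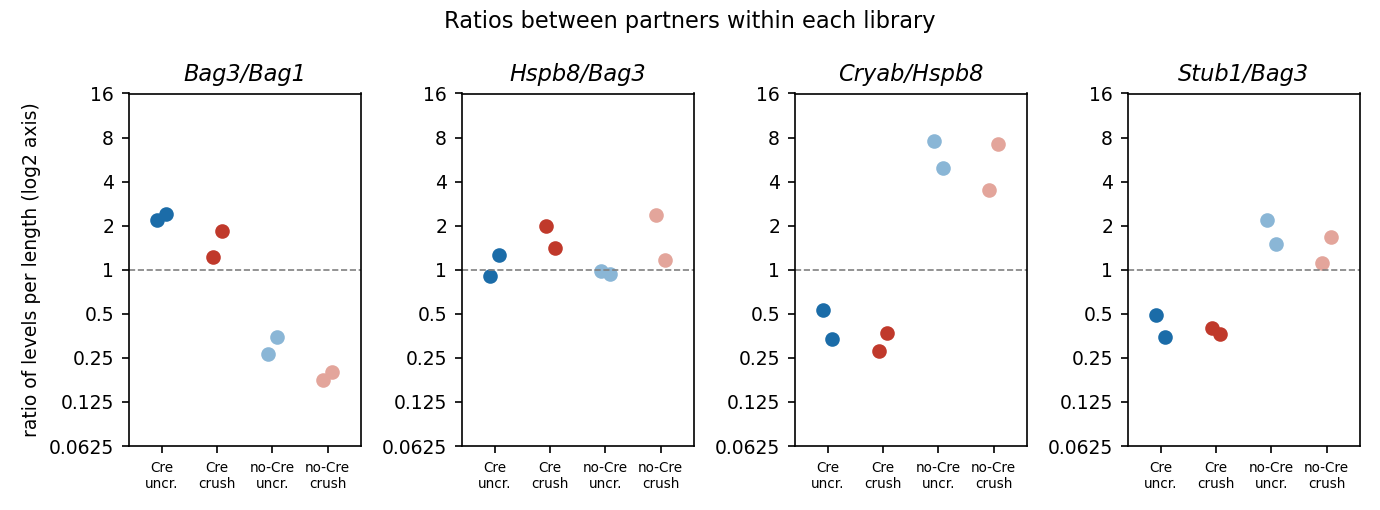
Ratios of levels per length between partners within each of the 8 libraries (log2 axis, dashed line at 1), grouped by Cre and crush, each point an animal. Bag3/Bag1 lies above 1 in the 4 Cre libraries and below 1 in the others, and Cryab/Hspb8 and Stub1/Bag3 lie the other way.

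Hspb8, the small heat shock protein that travels with BAG3, followed Bag3 closely. It stood at 158 and 196 CPM in intact Cre mice, 230.3 and 175 CPM in crushed Cre mice, 15.6 and 14.4 CPM in intact no-Cre mice and 16.15 and 16.8 CPM in crushed no-Cre mice. Crushed and uncrushed Cre libraries overlapped, and all 4 were far above the no-Cre libraries. Its log2 difference between Cre and no-Cre was 3.56 ± 0.27 without crush and 3.62 ± 0.26 with crush, ranked 169 and 96. Per length, Hspb8 over Bag3 was 0.906 and 1.26 in intact Cre mice, 2.00 and 1.41 in crushed Cre mice, 0.986 and 0.942 in intact no-Cre mice and 2.36 and 1.17 in crushed no-Cre mice. Over the 8 libraries the ratio of the partners thus ran from 0.906 to 2.36. The ratio was higher after crush with and without Cre, by 0.65 and 0.79 on the log2 scale, and the exact permutation p was again 0.333 for each. The effective length of Hspb8 moved with this, from 1499 and 1335 bases in intact to 1244 and 1330 bases in crushed Cre mice, and its part in the ratio was not tested.

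**Figure D2:**
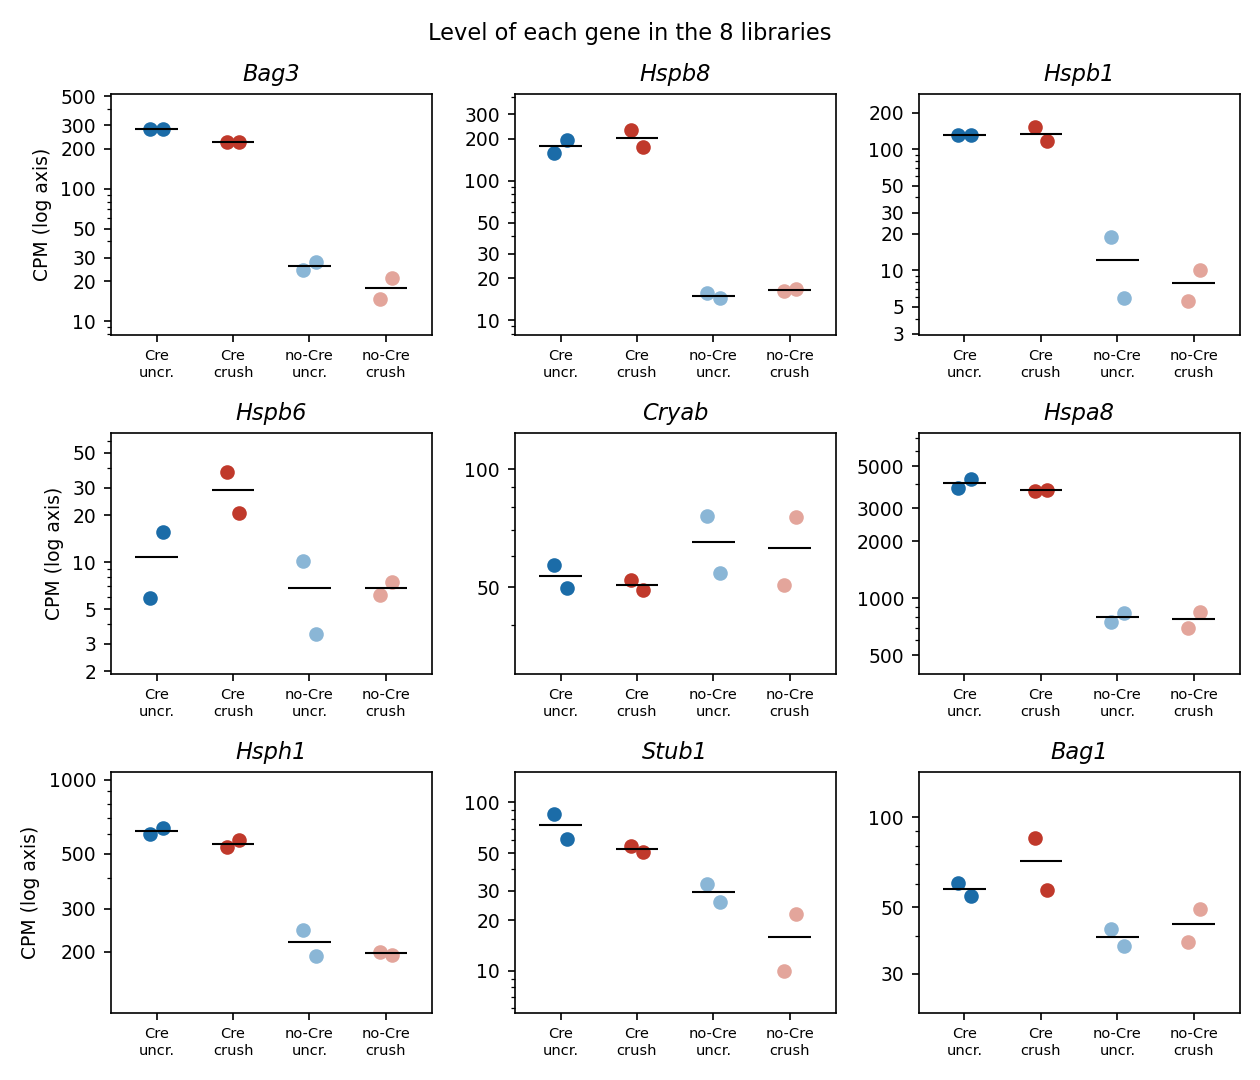
Levels of the 9 genes in CPM (log axis, range differing between panels) in the 8 libraries, grouped by Cre and crush; points are animals and lines group means (n = 2). Bag3, Hspb8, Hspb1 and Hspa8 sit far higher in the 4 Cre libraries than in the 4 without Cre, while the Cryab groups overlap.

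Among the other small heat shock proteins, Hspb1 shared this pattern, Hspb6 did so partly and Cryab did not. Hspb1 (HSP25), a chaperone of stressed axons and of the cytoskeleton, stood at 132 and 131 CPM in intact Cre mice, 153 and 117 CPM in crushed Cre mice, 18.7 and 5.88 CPM in intact no-Cre mice and 5.56 and 10.2 CPM in crushed no-Cre mice. All 4 Cre libraries were close together and the no-Cre libraries spread more, at 22 to 61 counts each. Its fold difference was 11.1 without crush (log2 3.48 ± 0.44) and 17.3 with crush (4.11 ± 0.44). Expected counts of Hspb1 were not whole in 7 of 8 libraries, so some of its reads are shared with other genes and its values are uncertain to that extent.

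Hspb6 (HSP20), best known from muscle, was the least abundant of the 9 per length in all 4 groups, although in crushed no-Cre mice its 6.85 ± 2.33 CPM per kilobase (SD, n = 2) was within the spread of Bag3 at 7.40 ± 1.88. It stood at 5.85 and 15.7 CPM in intact Cre mice, 37.5 and 20.65 CPM in crushed Cre mice, 10.1 and 3.47 CPM in intact no-Cre mice and 6.11 and 7.5 CPM in crushed no-Cre mice. On this scale both Cre crushed animals were above every other library, and animal 10 was within the no-Cre range. Per length animal 52, at 21.0 CPM per kilobase, was below the intact animal 3, at 24.9. Its Cre difference was 0.73 ± 0.58 without crush and 2.10 ± 0.53 with crush. In the GENCODE annotation Hspb6 overlaps Gm38670 on its own strand and Lin37 and Proser3 on the other, and whether counting used strand is not stated, so its reads may include theirs.

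Cryab, the alpha B-crystallin that is abundant in oligodendrocytes and astrocytes, was the exception to the Cre pattern. It stood at 56.85 and 49.9 CPM in intact Cre mice, 52.15 and 49.1 CPM in crushed Cre mice, 76.0 and 54.2 CPM in intact no-Cre mice and 50.8 and 75.5 CPM in crushed no-Cre mice. The 4 Cre libraries lay within the range of, or just below, the no-Cre libraries. The log2 difference was -0.28 ± 0.26 without crush and -0.32 ± 0.26 with crush, and its sign turned without crush by library size alone (0.43) and without animal 4 (0.01), and with crush without animal 58 (0.05). Over the same libraries the 8 oligodendrocyte markers and the 8 astrocyte markers were lower with Cre, with 8 of 8 and 8 of 8 called without crush and 8 and 7 with it, at median log2 differences of -3.20 and -2.93 without crush. The part of glial mRNA in the Cryab value was not tested. Per length, Cryab over Hspb8 was 0.279 to 0.530 in the Cre libraries and 3.51 to 7.59 in those without. Cryab mRNA was thus below Hspb8 mRNA with Cre and above it without. Cryab overlaps Hspb2 on the opposite strand.

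Hspa8, the constitutive HSP70 that BAG3 and BAG1 both bind, was the most abundant of the 9. It stood at 3836 and 4297 CPM in intact Cre mice, 3691 and 3749 CPM in crushed Cre mice, 748 and 842 CPM in intact no-Cre mice and 701 and 848 CPM in crushed no-Cre mice. Cre libraries were all above no-Cre libraries, by 5.11-fold without crush (log2 2.35 ± 0.29) and by 2.26 ± 0.28 on the log2 scale with crush. Per length there was 16.6 to 20.3 times as much Hspa8 as Bag3 with Cre and 38.6 to 58.2 times as much without, 2 ranges that do not overlap. Its expected counts were not whole in 7 libraries, and small nucleolar RNA genes lie within it.

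Hsph1 (HSP110), which exchanges nucleotide on HSP70 and takes part in disaggregation, stood at 602 and 637 CPM in intact Cre mice, 535 and 567 CPM in crushed Cre mice, 245 and 192 CPM in intact no-Cre mice and 200.45 and 194 CPM in crushed no-Cre mice. The Cre libraries were above the others, by 1.50 ± 0.24 on the log2 scale without crush and 1.48 ± 0.24 with crush. Stub1, whose product CHIP ubiquitinates clients held by HSP70, stood at 85.7 and 61.1 CPM in intact Cre mice, 55.5 and 51.0 CPM in crushed Cre mice, 32.75 and 25.6 CPM in intact no-Cre mice and 10.0 and 21.8 CPM in crushed no-Cre mice. It too was higher in every Cre library than in any without, by 1.34 ± 0.34 and 1.75 ± 0.34. Stub1 overlaps Jmjd8 on the opposite strand and had counts that were not whole in all 8 libraries. Per length Stub1 was below Bag3 with Cre (ratio 0.350 to 0.490) and above it without (1.11 to 2.18).

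Put in order by level per length, the Cre uncrushed precipitates held Hspa8 at 2056 ± 183 CPM per kilobase (SD, n = 2), then Hspb1 at 179 ± 0.17, Hsph1 at 170.2 ± 6.94, Hspb8 at 126 ± 29.1, Bag3 at 116 ± 0.113, Cryab at 52.4 ± 4.81, Bag1 at 50.9 ± 3.53, Stub1 at 48.8 ± 11.6 and Hspb6 at 17.3 ± 10.7. Hspb8 and Bag3 were closer than the spread of Hspb8, and Cryab, Bag1 and Stub1 were closer than the spread of Stub1. In the Cre crushed precipitates Hspb8, at 158 ± 37.7, Hspb1, at 185 ± 34.9, and Hsph1, at 152 ± 6.12, were likewise closer than their spread. Without Cre and crush the order below Hspa8 (420.4 ± 32.3) began with Cryab at 64.1 ± 15.0 and Hsph1 at 59.2 ± 9.28, and Hspb8 (10.3 ± 0.693) and Bag3 (10.7 ± 1.07) were near the bottom.

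Counted together, 6 of the 9 genes were called higher with Cre without crush (all but Bag1, Cryab and Hspb6) and 8 of 9 with crush (all but Cryab), and 0 were called lower in either. A call is a Benjamini-Hochberg adjusted p below the threshold of 0.05 in edgeR's quasi-likelihood test over all genes. Of all genes tested, 20.6% were called higher without crush and 21.6% with crush, while 21.9% and 21.3% were called lower. Since the set was chosen with this contrast known, nothing is read from the comparison. The median log2 difference of the 9 was 1.50 without crush, against -0.03 over all genes, and 2.10 with crush, against -0.08. In 7 of the 9, all but Hspb6 and Cryab, every Cre library was above every no-Cre library, as was so for 25.7% of all genes, and in 0 every Cre library was below, as for 25.2% of all genes. The 9 genes took 0.488% to 0.694% of all expected counts with Cre and 0.063% to 0.159% without. With crush, the call of Bag1 was lost without animal 35 (0.42), 51 (0.56), 10 (0.73) or 3 (0.74), and that of Hspb6 without animal 35 (1.64) or 51 (1.99). The call of Bag1 with crush was also lost by library size alone (0.89) and without both libraries with a contradictory genotype entry (0.75). Without crush, the call of Stub1 was lost without animal 10 (1.11) or 6 (1.23). Scaled by library size alone, the median over all genes was 0.65 without crush and 0.06 with it.

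**Figure D3:**
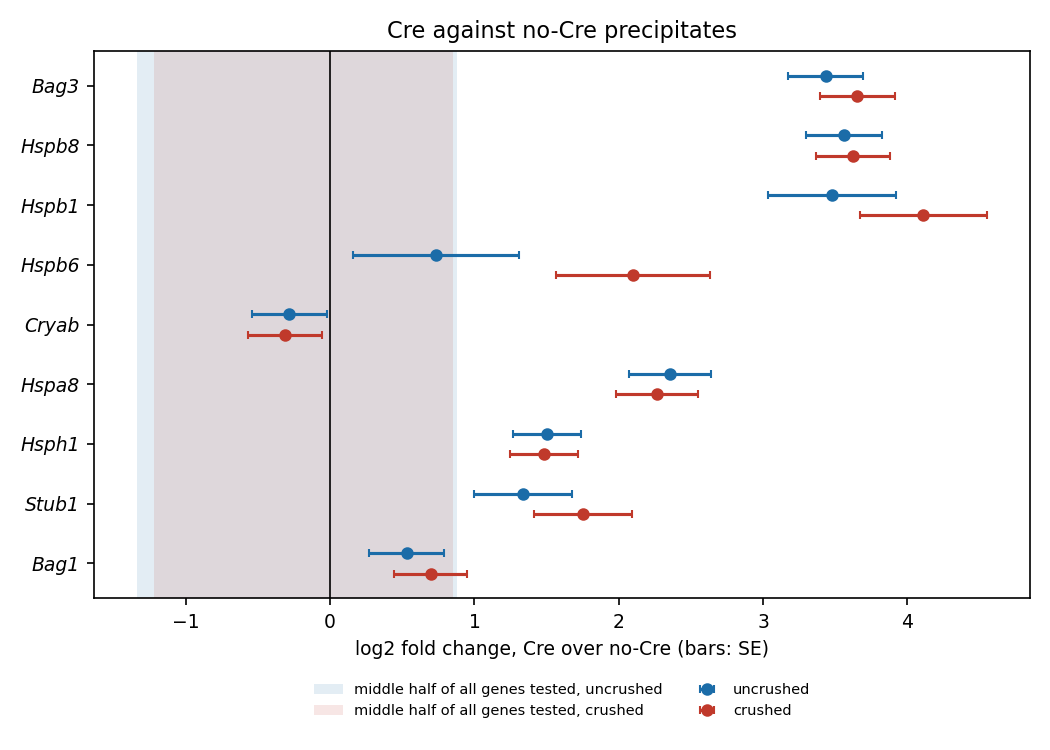
Log2 fold change of Cre over no-Cre precipitates for the 9 genes, in uncrushed (blue) and crushed (red) mice; bars are the SE and shaded bands span the middle 50% of all genes tested. Bag3, Hspb8 and Hspb1 lie between 3.43 and 4.11 in both, and Cryab lies below 0.

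The rule that chose the genes does not use the crush comparisons, which were tested, although earlier results of these data were known when the set was drawn up. Among precipitates with Cre, 0 of the 9 genes were called between crushed and uncrushed mice in edgeR's quasi-likelihood test, beside 11 of all genes (0.0723%); 1 of the 9 (Hspb6) had an unadjusted p under 0.05, as had 1421 of all genes, and DESeq2 called 0 of the 9 and 130 of all genes. Bag3 differed by -0.32 ± 0.23 on the log2 scale (adjusted p = 0.746), and both crushed libraries were below both uncrushed ones. Hspb8 differed by 0.20 ± 0.23 (adjusted p = 0.864) and Hspb1 by 0.03 ± 0.37 (adjusted p = 0.988). Hspa8 differed by -0.13 ± 0.27, Hsph1 by -0.17 ± 0.23, Stub1 by -0.46 ± 0.32, Bag1 by 0.31 ± 0.25 and Cryab by -0.07 ± 0.26, with adjusted p from 0.745 to 0.964 in edgeR's test. With 2 animals a group, changes well above these SEs could also go uncalled. Hspb6, at 1.42 ± 0.51, had an adjusted p of 0.418 in edgeR's test. Crushed and uncrushed groups did not overlap for 1 gene higher after crush (Hspb6) and 4 lower (Bag3, Hspa8, Stub1 and Hsph1), which 26.1% and 23.9% of all genes did in each direction. Scaled by library size alone, the median over all genes was 0.47 in this comparison, and Bag3, Hspa8, Hsph1 and Cryab then had positive values.

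Hspb6 had the largest difference of the 9 after crush in Cre precipitates, at 1.42 ± 0.51 on the log2 scale (adjusted p = 0.418 in edgeR's test). Its counts behind this were 45 and 161 in the uncrushed and 592 and 261 in the crushed libraries. Per length the groups overlapped, at 17.3 ± 10.7 CPM per kilobase in intact and 29.5 ± 12.1 in crushed Cre mice (SD, n = 2), since the effective length was 601 and 631 bases in the former and 984 and 985 bases in the latter. The difference was 0.93 without animal 35, 0.88 without animal 10 and 2.32 without animal 3. With no filter on low counts it was called, at 1.44 (adjusted p = 0.015). Animal 35, which was 18 weeks old, had the highest levels of Hspb6, Hspb8, Hspb1 and Bag1 among the Cre libraries. The 9 muscle markers summed to 11.4 and 76.4 CPM in intact and 8.4 and 6.3 CPM in crushed Cre mice, and to 245 and 64.9 CPM in intact and 66.6 and 40.0 CPM in crushed no-Cre mice. Their part in the Hspb6 values was not tested. The oligodendrocyte and astrocyte markers were higher in crushed Cre mice, summing to 1118 and 1854 CPM against 889 and 720 CPM and to 581 and 720 CPM against 441 and 425 CPM. In edgeR's test 0 were called, but 6 of 8 oligodendrocyte and 5 of 8 astrocyte markers had an unadjusted p under 0.05. Of all 15208 genes, 1421 had such a p. The part of these markers in the values of the 9 genes was not tested.

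Without Cre, the same comparison shows how mRNA of the untagged background differed with crush. In these precipitates 0 of the 9 genes were called, beside 11 of all genes (0.0723%), with 1 of the 9 (Stub1) and 1941 of all genes at an unadjusted p under 0.05 and 0 of the 9 called by DESeq2. Bag3 differed by -0.54 ± 0.25 on the log2 scale (adjusted p = 0.401) and Stub1 by -0.88 ± 0.35 (adjusted p = 0.353), while Hspb8 differed by 0.14 ± 0.26 (adjusted p = 0.848) in edgeR's test. Here the groups did not overlap for Hspb8, higher after crush, and for Bag3 and Stub1, lower, against 19.9% and 19% of all genes. The sign of Bag3 turned positive (0.36) when scaled by library size alone, where the median over all genes was 0.94.

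The difference between the crush effects with and without Cre was tested as an interaction. It was 0.22 ± 0.34 for Bag3 (adjusted p = 0.963), 0.06 ± 0.35 for Hspb8 (adjusted p = 0.995) and 1.37 ± 0.78 for Hspb6 (adjusted p = 0.886) in edgeR's quasi-likelihood test, and 0 of the 9 genes were called. Of all genes, 0 (0%) were called, with 905 at an unadjusted p under 0.05, 0 of the 9 among them, and 14 were called by DESeq2.

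**Figure D4:**
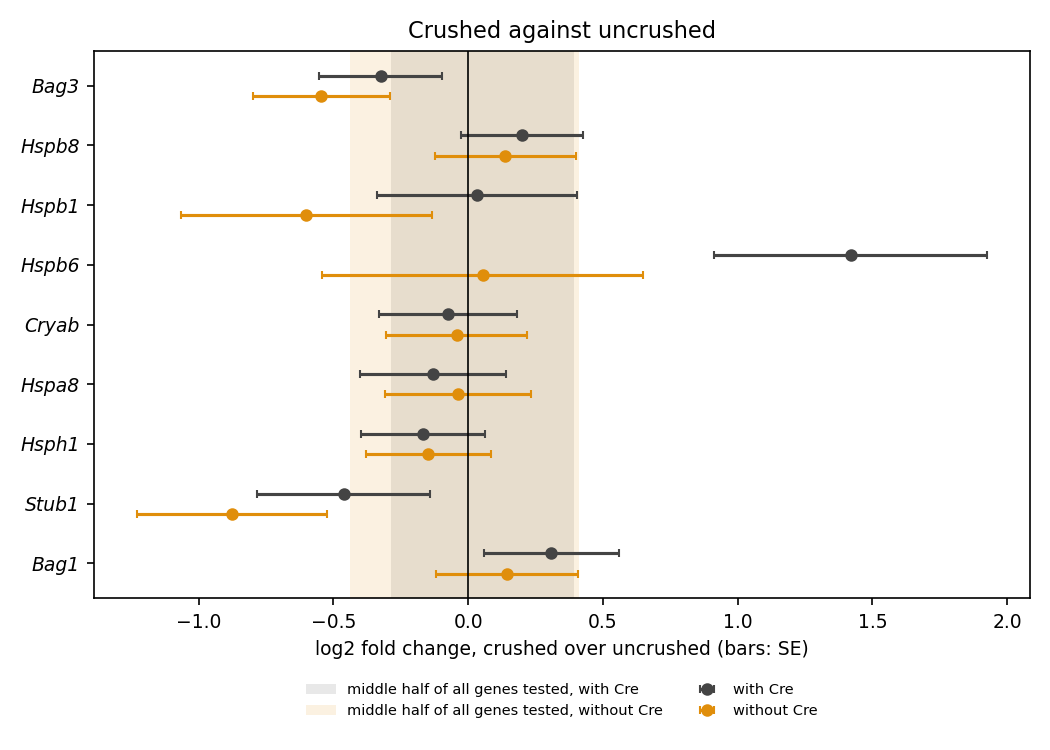
Log2 fold change of crushed over uncrushed mice for the 9 genes, with Cre (grey) and without (orange); bars are the SE and shaded bands span the middle 50% of all genes tested. With Cre, Hspb6 (1.42) lies above the grey band, and Bag3 (-0.32) and Stub1 (-0.46) lie below it. Without Cre, Bag3, Stub1 and Hspb1 lie below the orange band. None of the points passed the test.

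The wider pathway was read from 9 lists of 94 genes, of which 93 were found. Among J-domain proteins and other co-chaperones, 11 of 14 genes were called higher with Cre without crush and 13 of 14 with crush. In both comparisons 0 were called lower, and the medians were 1.72 and 1.70. Dnaja4, a J-domain protein, differed by 2.12 ± 0.26 and 2.69 ± 0.26, and Stip1, which links HSP70 to HSP90, by 2.04 ± 0.24 without crush. Of 9 further cytosolic HSP70, HSP110 and HSP90 chaperones, 5 and 4 were called higher and 0 lower, among them Hsp90aa1 (2.05 ± 0.32 and 2.03 ± 0.32) and Hspa12a (2.17 ± 0.25 and 1.97 ± 0.25). Of the 4 other BAG genes, 2 were called higher in each, Bag6 (1.57 ± 0.26 and 1.31 ± 0.25) and Bag5 (1.16 ± 0.27 and 1.26 ± 0.26). These shares stand beside the 20.6% and 21.6% of all genes called higher.

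Of the 6 remaining small heat shock proteins listed, only 2 passed the filter, Hspb7 and Hspb11, and neither was called higher with Cre. Those that failed the filter were too low to be compared with Hspb8. Hspb7, a muscle chaperone, was called lower with Cre without crush at -3.48 ± 1.24. Its levels in intact mice were 0.26 and 1.07 CPM with Cre and 14.4 and 1.6 CPM without, so that animal 4 sets the value. The call was lost without animal 4 (-1.17), 10 (-2.80) or 3 (-4.79). Of the 3 heat shock transcription factors, Hsf4 was called higher with Cre (2.63 ± 0.66 and 2.43 ± 0.59) and Hsf2 lower (-4.08 ± 0.40 and -5.32 ± 0.42). The call of Hsf4 was lost without animal 6 in intact mice (1.98) and without animal 51 in crushed mice (1.77).

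Among 14 partners of chaperone-assisted autophagy, 7 were called higher with Cre in each comparison, and 3 were called lower without crush and 4 with crush. Ywhag, a 14-3-3 protein that joins the BAG3 complex to dynein, was higher by 2.48 ± 0.33 with crush. Flna, a filamin that the BAG3 complex is known to act on, was lower, at -2.76 ± 0.44 without crush and -2.15 ± 0.39 with it. Of 7 autophagy receptors, 3 were called higher in each, and 1 lower without crush. Optn, a receptor for ubiquitinated cargo, was higher by 1.67 ± 0.32 and 1.32 ± 0.30. In the core autophagy machinery 13 and 14 of 26 genes were called higher and 3 and 3 lower, and those higher included Gabarapl1 (1.74 ± 0.32 and 2.08 ± 0.32), which is conjugated to autophagosome membranes. Of 10 lysosome genes, 3 were called higher and 1 lower in each, and the proteases Ctsd (2.02 ± 0.27 and 1.86 ± 0.27) and Ctsb (1.12 ± 0.28 and 1.54 ± 0.28) had the largest differences of these. Without animal 4 the call of Ctsb in intact mice was lost (0.96). Beside these lists, 20.6% of all genes were called higher without crush and 21.6% with it, and 21.9% and 21.3% were called lower, so the lysosome counts and the lower counts among the 14 partners were near the share of all genes.

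After crush in Cre precipitates, 0 genes of the 9 lists were called by edgeR's test, beside 0.0723% of all genes, and the list medians ran from -0.46 to 0.30 against 0.03 for all genes. Without Cre, 1 listed gene was called after crush, the autophagy receptor Tax1bp1. It stood at 424 and 358 CPM uncrushed and 138 and 87.1 CPM crushed, and fell by 1.80 ± 0.27 on the log2 scale (adjusted p = 0.0486 in edgeR's test). Its adjusted p was 0.0504 to 0.202 when each library was left out in turn, so the call was lost in all 8 such fits, with log2 values from -2.16 to -1.50. DESeq2 (adjusted p = 2.04e-08) and the fit with no filter (4.99e-07) kept the call. In edgeR's test it was also lost with DESeq2 size factors (adjusted p = 0.0522) and in a fit of the compared groups (0.174). It was lost as well by library size alone (-0.72, adjusted p = 0.182) and by genotype entry (-1.33, adjusted p = 0.612). Without both libraries with a contradictory genotype entry the value was -1.67 and not called.

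**Figure D5:**
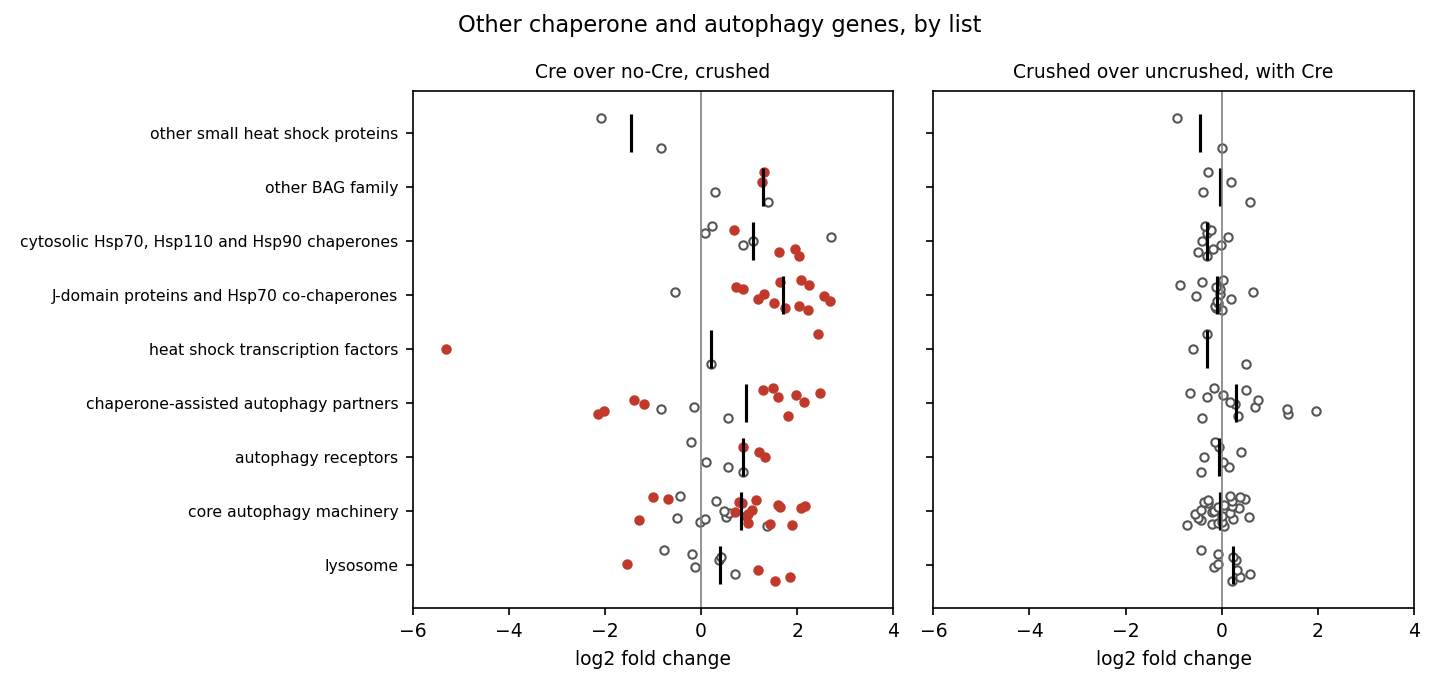
Log2 fold changes of the other chaperone and autophagy genes by list, for Cre over no-Cre in crushed mice (left) and crushed over uncrushed mice with Cre (right); each point is a gene, filled red where called, and bars are list medians. Of 14 J-domain proteins and co-chaperones 13 are filled on the left, and 0 points are filled on the right.

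Across the 8 libraries the log2 CPM of Bag3 and Hspb8 correlated with Pearson's r = 0.98, and both with Hspa8 (0.99 each), while Cryab gave -0.53 with Bag3. These values are a description over 8 libraries that fall into Cre and no-Cre clusters, which set most of each r. By the same measure over 12950 genes, the genes most like Bag3 included Cabp7 (0.998), Mapk9 (0.998), Eif2ak1 (0.998) and Tuba4a (0.998), and those most like Hspb8 were Fam57b (0.998), Anxa6 (0.997), Camk2g (0.997), Nrbp1 (0.997) and Psmd12 (0.997).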

How the data were processed

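Gene tables of 8 RiboTag libraries were used. The deposited expected counts are the authors' estimates of reads per gene, made with Bowtie2 2.2.0 and RSEM 1.2.12 per the submitters' processing notes. The deposited length and effective length columns, of the type other, are in bases as RSEM writes them per the file headers. Genome build, annotation and strandedness of counting were not given in the sources used here. Symbols were found for 37607 of 38924 identifiers (96.6%).

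Libraries were grouped by title. The members and lists were chosen with earlier results of these data known. Pathway genes were named by a rule: in crush contrasts every called gene, and in Cre contrasts up to 4 called genes a list with the largest change and a mean of at least 1 CPM (at most 2 are printed, and some genes that the rules name are not reported here).

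Counts were rounded and analysed with edgeR 4.0.16 in R 4.3.3: filterByExpr (minimum count 10, total 15), TMM, a quasi-likelihood fit of 1 mean per group to all libraries (4 residual degrees of freedom), two-sided tests and Benjamini-Hochberg adjustment over 15208 genes. The SE is the log2 fold change over the square root of F. CPM uses TMM-scaled totals, and log2 CPM a prior count of 2. Each group held 2 animals, and no pair of replicates agreed within sampling noise (chi-square per degree of freedom 35.6 to 101). Code was tested on simulated data. Alternatives were DESeq2 1.42.0, its size factors, library size alone, no filter, the compared groups alone, other uses of the genotype entry and leaving out each library. Overlaps with other genes come from GENCODE vM21. Counting error alone underlies the floor of 3 counts.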

Additional observations from a re-analysis of the deposited data

How the results depend on the processing

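No paired analysis was possible because each number in the titles belongs to 1 group. With 2 animals in a group, the number of animals and the library totals limit what could be detected. Of 492 values of the 9 genes under alternatives, 439 were stable. In the crush comparisons this means the same direction and side of the threshold, and in the Cre comparisons a move of less than 1 SE, whether or not a call was lost. Of 509 values of pathway genes, 444 kept both, and 57 calls were lost, 26 of them when libraries were grouped by the genotype entry. With titles kept, the Cre difference of Bag3 ranged from 3.33 to 4.11 without crush and from 3.44 to 3.99 with crush, and that of Hspb8 from 3.43 to 4.26 and from 3.45 to 3.85.

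After crush with Cre, all genes called (11) became 130 with DESeq2, 281 with no filter, 126 in a fit of the compared groups, 5 without both libraries with a contradictory genotype entry, 0 when grouped by that entry, and 7 to 15 when each library was left out. With no filter 1 of the 9 genes was called. After crush without Cre, the 11 became 1 with DESeq2 size factors, 1204 with library size alone, 100 with DESeq2, 338 with no filter, 2 in a fit of the compared groups, 0 without both contradictory libraries, 0 when grouped by genotype entry and 0 to 7 by leaving out a library. For the interaction, 0 became 14 with DESeq2 and 87 with no filter. Cre against no-Cre without crush called 6468 genes, 3299 without both contradictory libraries, 0 by genotype entry and 3802 to 6512 by leaving out a library. With crush it called 6521, 0 by genotype entry and 2733 to 7392 by leaving out a library, the lowest without animal 35. By genotype entry 0 of the 9 genes were called in either. The crushed groups hold the same animals by title and by genotype entry, and the fit estimates spread over all libraries. By genotype entry the crushed log2 differences of Hspb6, Stub1 and Bag1 were 2.09, 1.74 and 0.70, against 2.10, 1.75 and 0.70 by title. The part of the shared spread in the lost calls was not tested. By library size alone the uncrushed Cre contrast called 4753 genes higher and 1463 lower, in place of 3137 and 3331, and the crushed one 2837 and 1922, in place of 3286 and 3235.

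Signs of the crush effect with Cre turned by library size alone for Bag3 (0.11), Cryab (0.37), Hspa8 (0.30) and Hsph1 (0.27), and by genotype entry for Bag3 (0.55), Hspa8 (0.70) and Hsph1 (0.38). Leaving out a library gave ranges of -0.012 to 0.39 for Hspb8, -0.17 to 0.22 for Hspb1, -0.16 to 0.015 for Cryab and -0.0068 to 0.57 for Bag1. Without Cre, library size alone gave 0.36 for Bag3 and 0.0048 for Stub1, and the genotype entry gave -2.67 for Hspb8. The interaction by library size alone was -0.25 for Bag3 and -0.48 for Hspb8, and leaving out a library gave -0.026 to 0.51 and -0.15 to 0.25. In the uncrushed Cre contrast by genotype entry, values were -0.013 for Bag3, -0.27 for Hspb8, -0.16 for Hspa8, 2.42 for Hspb7, -0.43 for Bag6, -0.30 for Hspa12a, -0.35 for Optn, -0.42 for Calcoco1, -0.31 for Gabarapl1, -0.21 for Ctsd and -0.14 for Ctsb. Grouping by the genotype entry puts the intact animals 10 and 4 together, with Bag3 at 282 and 24.2 CPM. It likewise puts animals 3 and 6 together, with Bag3 at 281 and 27.8 CPM. Each uncrushed group by that entry thus mixes a library with Cre by title and a library without. The cause of these changes was not tested. Using RSEM's length in place of its effective length kept 21 of 36 levels per length within 1 SD.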

Other observations

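Hsf2, a heat shock transcription factor, had an unusual level for its kind in the precipitates without Cre. It stood at 2163 and 3336 CPM in intact no-Cre mice and 3331 and 5220 CPM in crushed no-Cre mice, and at 199 and 125 CPM in intact and 117 and 97.8 CPM in crushed Cre mice. Bag3, for comparison, was at 14.7 to 27.8 CPM in the no-Cre libraries.

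The effective length of Hspb6, the mean over its transcripts that RSEM derives per library, was 601 and 631 bases in the Cre uncrushed libraries, 984 and 985 bases in the Cre crushed, 841 and 1126 bases in the no-Cre uncrushed and 1174 and 882 bases in the no-Cre crushed. That of Hspb8 was 1499 and 1335 bases in intact and 1244 and 1330 bases in crushed Cre mice, and ranged from 1127 to 1648 bases without Cre. Levels of both genes per length depend on these estimates.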
